A study of Sus scrofa with 48 samples.

Results

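The mitochondrial ribosomal protein genes were examined in liver of 48 pigs. Every probe of the array whose gene name starts with MRPL or MRPS followed by a digit was taken, and each gene was represented by its brightest probe. The array held 58 such genes among its 14606 gene symbols, 36 named for the large subunit of the ribosome and 22 for the small subunit, with 83 probes in all. For 57 genes and 80 probes the signal was well above background on at least 12 arrays, which was the requirement for testing. MRPS35, the remaining gene, was well above background on 1 array and was not tested, and 1 further probe each of MRPL47 and MRPS9 stayed untested, while these genes were represented by other probes.

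Liver RNA of each pig was labelled with Cy3 and put on a separate array, in a design of line by diet. Residual feed intake (RFI) is the feed an animal eats beyond the intake predicted for its production, here from daily gain and backfat thickness, so that a pig of the low RFI line (labelled RFIneg) is the more efficient one, and the high RFI line (labelled RFIpl) is its counterpart after 8 generations of divergent selection. All pigs were barrows, and each line supplied 24, of which 12 received a high-fat high-fiber diet (HF) and 12 a low-fat low-fiber diet (LF) from 74 days of age until slaughter at about 19 weeks. The lines differ by selection as a whole, so that a line effect belongs to no single gene or allele, and the diets differ in fat and fiber together.

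Mitochondria keep a small genome that encodes core subunits of the respiratory chain, and these subunits are translated inside the organelle by a ribosome of its own. The ribosomal RNAs of that ribosome come from the mitochondrial genome, whereas all of its proteins are encoded in the nucleus, made in the cytosol and imported. Some of them have counterparts in bacteria, such as MRPL9, MRPL14, MRPL24 and MRPS16, and others exist only in mitochondria, such as MRPL48 and MRPL52. Names do not always follow location, since MRPS18A and MRPS30 are now placed in the large subunit and MRPS36 is known as a component of the 2-oxoglutarate dehydrogenase complex. In liver, this ribosome serves the oxidative metabolism of hepatocytes.

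The results turned on a few probes, each of 60 bases, whose sequences are shown because probes of the same gene did not always give the same answer. The brightest MRPL9 probe and the other MRPL9 probe read different stretches, with no common run longer than 5 bases. The MRPL24 probes and the MRPL14 probes likewise had no more than 6 bases in a common run.
MRPL9, brightest probe: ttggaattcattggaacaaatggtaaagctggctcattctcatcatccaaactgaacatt
MRPL9, other probe: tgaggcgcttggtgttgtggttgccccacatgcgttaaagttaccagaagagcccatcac
MRPL24, brightest probe: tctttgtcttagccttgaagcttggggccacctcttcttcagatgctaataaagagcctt
MRPL24, probe 2: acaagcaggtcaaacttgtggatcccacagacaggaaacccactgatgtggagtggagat
MRPL24, probe 3: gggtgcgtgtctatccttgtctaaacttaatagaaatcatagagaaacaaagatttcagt
MRPS16, its only probe: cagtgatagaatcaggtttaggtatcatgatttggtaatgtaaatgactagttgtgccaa
MRPL14, brightest probe: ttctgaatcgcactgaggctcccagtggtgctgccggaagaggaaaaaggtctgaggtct
MRPL14, other probe: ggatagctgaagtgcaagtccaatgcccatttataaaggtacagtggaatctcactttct

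The 4 MRPL52 probes formed 2 pairs. Probes 1 and 2 shared a run of 50 bases, shown in capitals, and probes 3 and 4 shared a run of 39 bases, likewise in capitals. Probes 3 and 4 differed at 1 position (A40T, probe 3 first, counted from the 5′ end). No run longer than 5 bases was common to the first and the second pair.
MRPL52, probe 1 (brightest): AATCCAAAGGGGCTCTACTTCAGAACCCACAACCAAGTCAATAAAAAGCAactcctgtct
MRPL52, probe 2: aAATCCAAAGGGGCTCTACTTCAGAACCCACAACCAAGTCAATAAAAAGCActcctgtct
MRPL52, probe 3: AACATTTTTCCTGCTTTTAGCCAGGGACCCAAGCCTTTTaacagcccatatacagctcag
MRPL52, probe 4: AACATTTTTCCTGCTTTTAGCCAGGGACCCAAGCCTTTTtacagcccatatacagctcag

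The arrays lay on 6 slides, each with 2 arrays of every line and diet group, and were scanned on 2 days with 24 arrays on each. Median intensities per array lay between 53.04 and 126 scanner units. Well above background were 65.8% to 77.2% of the probes on each array, and 0 spots were saturated. Hepatocyte markers were well above background on all 48 arrays for each of the 7 tested, ALB (albumin) and APOA1 included. Values below are log2 intensities minus the median of the array, so that 0 is the median tested probe of that array. Intensities of different probes depend on the probe and are not compared as amounts of RNA. Each pig is 1 sample, and in whole liver fewer cells of a type cannot be told apart from less RNA per cell.

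In pigs from the low RFI line, 1 mitochondrial ribosomal protein gene was over-expressed (MRPL9) and 2 were under-expressed (MRPL24 and MRPS16), out of the 57 tested. A gene was called when P was under 0.01 and the fold-change (FC) over 1.1, and the same cut-offs called 6.98% of the 12497 gene symbols tested by their brightest probe, or 6.91% of all 45236 probes. By direction, 3.56% of the symbols were called higher and 3.42% lower. The count of 3 of 57 genes was thus close to the background. All 3 genes also passed a Benjamini-Hochberg adjusted P (P-BH) of 5% over all tested probes with limma, as did 3.98% of the symbols.

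MRPL9, a protein of the large subunit, ranged in the low RFI line from 4.90 to 5.43 (median 5.14) and in the high RFI line from 4.57 to 5.18 (median 4.86). The ranges overlapped, but all 24 low RFI pigs exceeded the median high RFI pig. Means were 5.13 ± 0.13 (SD, n = 24) and 4.88 ± 0.17 (SD, n = 24), a log2 FC of 0.25 (standard error 0.046, limma P-BH = 4.0e-04). With each diet the estimate was positive, at 0.28 with HF (P-BH = 0.0198) and 0.22 with LF (P = 0.00158, P-BH = 0.105). It had the same sign on each of the 6 slides, where it ran from 0.17 to 0.41, and it met the cut-offs on each scan day alone (0.28 and 0.22). The other MRPL9 probe, which reads a separate sequence shown above, gave 2.84 ± 0.21 (SD, n = 24) and 2.55 ± 0.22 (SD, n = 24), a log2 FC of 0.29 (limma P-BH = 0.00348). Both probes of this gene therefore met the cut-offs.

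MRPL24, a protein of the large subunit near the exit of the polypeptide tunnel, ranged from 6.16 to 6.65 (median 6.33) in the low RFI line and from 6.23 to 6.82 (median 6.50) in the high RFI line. Of the 24 low RFI pigs, 22 were lower than the median high RFI pig. The means of 6.32 ± 0.13 (SD, n = 24) and 6.49 ± 0.16 (SD, n = 24) gave a log2 FC of -0.17 (standard error 0.044, limma P-BH = 0.0186). MRPL24 was lower in the low RFI line on all 6 slides, with differences from -0.32 to -0.061. Its log2 FC was -0.13 with HF (limma P = 0.0443, P-BH = 0.524), short of the cut-offs, and -0.20 with LF (P = 0.00209, P-BH = 0.122), and the interaction did not pass (difference of 0.074, P = 0.404). Probe 2 of this gene had a log2 FC of -0.13 (P = 0.0047), just short of the FC cut-off, and probe 3 had -0.11 (P = 0.338). On the first scan day the log2 FC of MRPL24 was -0.23 (limma P = 4.18e-04), and on the second it was -0.10 (P = 0.176), which did not pass.

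MRPS16, a protein of the small subunit whose loss in humans causes a deficiency of the respiratory chain, had the largest estimated line effect of the 57 genes. In the low RFI line with HF, its 12 pigs ranged from 3.53 to 5.36 (median 4.73), and in the high RFI line with HF from 4.96 to 5.64 (median 5.13). With LF, the ranges were 4.70 to 5.70 (median 5.06) and 4.85 to 5.46 (median 5.21). One pig of the low RFI line with HF, at 3.53, lay far below all others. Line means were 4.90 ± 0.43 (SD, n = 24) and 5.20 ± 0.19 (SD, n = 24), a log2 FC of -0.29 (standard error 0.090, limma P-BH = 0.0493), and 18 of 24 low RFI pigs were lower than the median high RFI pig. Leaving out each pig in turn, a check chosen after seeing the data, moved this log2 FC between -0.32 and -0.24 (P from 5.62e-04 to 0.00361), and MRPS16 met the cut-offs each time. The difference was -0.46 with HF (P = 7.54e-04) and -0.13 with LF (P = 0.302), but the interaction of line and diet did not pass (difference of -0.32, P = 0.0765). On the first scan day alone the log2 FC was -0.30 with P = 0.0648, and on the second it was -0.29 with P = 0.00673. By slide the differences ran from -0.62 to 0.020, and on 1 of the 6 slides MRPS16 was higher in the low RFI line.

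**Figure D1:**
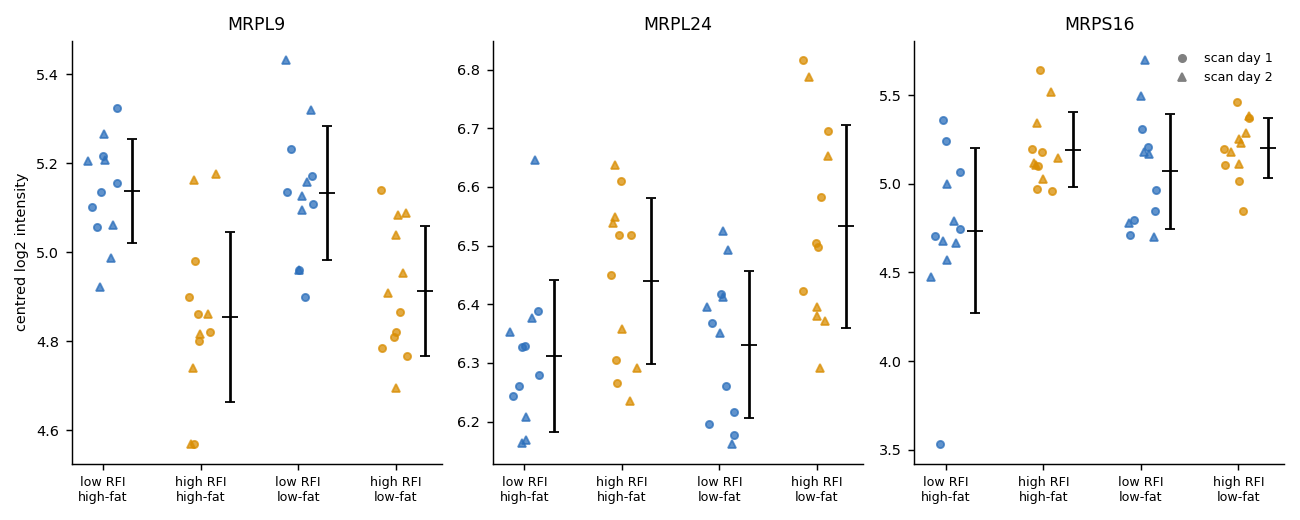
Centred log2 intensity (vertical axis) of MRPL9, MRPL24 and MRPS16 in each of 48 pigs by line and diet group (12 pigs each), as circles for the first and triangles for the second scan day, with the mean and SD of each group beside the points. MRPL9 is higher in both low RFI groups, MRPL24 is lower, and MRPS16 has 1 low RFI pig at 3.53.

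MRPL52, a protein found only in mitochondrial ribosomes, depended on the probe. Its brightest probe averaged 3.95 ± 0.25 (SD, n = 24) in low RFI pigs against 3.85 ± 0.21 (SD, n = 24) in high RFI pigs. The log2 FC of 0.10 (limma P = 0.128) did not pass. Probe 2, which shares 50 bases with it, gave 0.090 (P = 0.159). The pair with the other sequence met the cut-offs, probe 3 with a log2 FC of 0.17 (limma P = 0.00328, P-BH = 0.0696) and probe 4 with 0.22 (limma P = 9.31e-04, P-BH = 0.0302). For probe 4, the low RFI line ranged from -0.012 to 0.71 (median 0.29) and the high RFI line from -0.26 to 0.57 (median 0.095). In both of these probes 20 of 24 low RFI pigs exceeded the median high RFI pig. The intervals of the line effect overlapped between the pairs, from -0.029 to 0.22 for probe 1 and from 0.093 to 0.34 for probe 4 (95% confidence), and their difference was not tested.

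**Figure D2:**
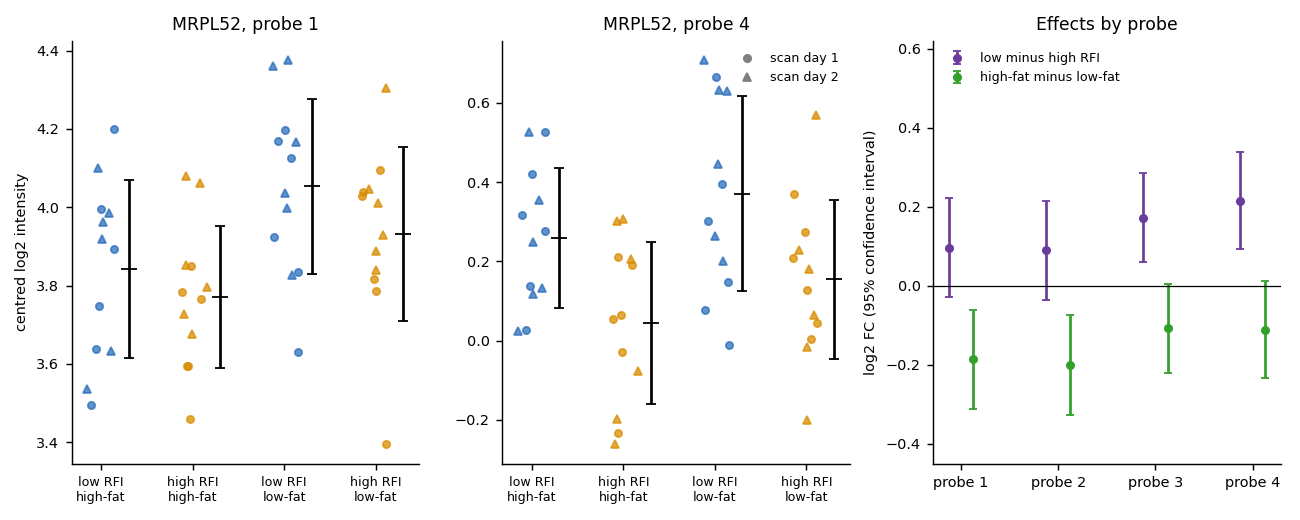
Centred log2 intensity of MRPL52 in each of 48 pigs for probe 1 and probe 4 (left and middle, 12 pigs per group, mean and SD beside the points, symbols by scan day) and log2 FC of line and diet with 95% confidence intervals for the 4 probes (right). The line interval lies above 0 for probes 3 and 4, and the diet interval lies below 0 for probes 1 and 2.

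Over the 57 genes the line effects were small. They ranged from -0.29 to 0.25, with 41 genes higher and 16 lower in the low RFI line and a median log2 FC of 0.026. Over all tested probes the median was 0.0053, with 23727 of 45236 higher. Split by name alone, the 36 MRPL genes had a median of 0.020 (24 higher) and the 21 tested MRPS genes, MRPS18A, MRPS30 and MRPS36 among them, a median of 0.032 (17 higher). An unadjusted P under 0.05 was reached by 7 of the 57 genes, against 1877 of 12497 symbols. Besides the 3 called genes these were MRPL17 (log2 FC of 0.19, P = 0.014), MRPS31 (0.15, P = 0.0216), MRPS30 (0.11, P = 0.0475) and MRPL23 (-0.10, P = 0.0204). On the first scan day 29 of the 57 genes were higher in the low RFI line (median 0.0066), and on the second 40 were (median 0.040).

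The intervals show how closely a line effect was bounded. With 24 pigs per line the standard error of the line effect was between 0.040 and 0.11 on the log2 scale. For 52 of the 57 genes the 95% confidence interval lay within an FC of 1.2 in either direction, and for 19 genes within 1.1. The 3 genes of highest intensity were MRPL24, MRPL18 and MRPL4, and of these MRPL18 had a log2 FC of -0.019 (P = 0.738) and MRPL4 of 0.051 (P = 0.268). The 3 of lowest intensity, MRPL39 (0.026, P = 0.786), MRPL13 (0.067, P = 0.413) and MRPS2 (0.061, P = 0.514), did not pass either.

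**Figure D3:**
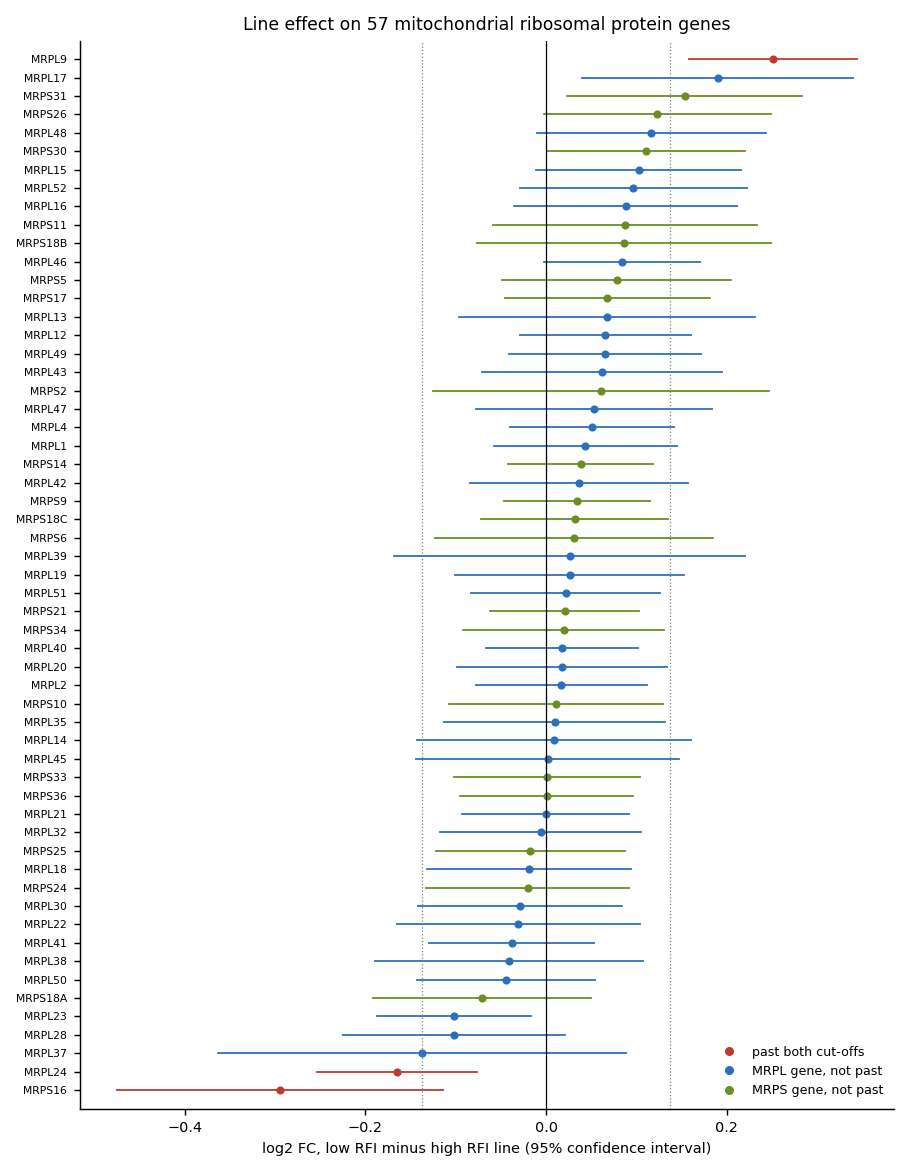
Log2 FC between lines, low minus high RFI (horizontal axis), with 95% confidence intervals for each of the 57 tested genes, ordered by effect, with genes past both cut-offs in red, other MRPL genes in blue, other MRPS genes in green and dotted lines at an FC of 1.1. MRPL9 stands at 0.25, MRPL24 at -0.17 and MRPS16 at -0.29, and most other genes lie between the dotted lines.

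For diet, 3 of the 57 genes met the cut-offs, all lower with HF: MRPL14, MRPL52 and MRPL48, and 0 were called higher. Of all symbols, 4.17% were called for diet by their brightest probe, 1.97% higher and 2.20% lower, so that 3 of 57 was again near the background. None of the 3 passed a P-BH of 5% with limma, a level that 0.536% of the symbols reached, and 7 of the 57 genes had an unadjusted P under 0.05, against 1779 of 12497 symbols. The 4 that were not called had values of -0.16 for MRPL22 (P = 0.0225), -0.11 for MRPL46 (P = 0.0171), -0.13 for MRPL16 (P = 0.038) and -0.13 for MRPS30 (P = 0.0195) as log2 FC with limma.

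MRPL14, a conserved protein at the interface of the subunits, ranged from 3.88 to 4.92 (median 4.36) with HF and from 3.90 to 5.10 (median 4.57) with LF. In 20 of 24 pigs fed HF it was below the median of the pigs fed LF, while the ranges overlapped widely. Means of 4.34 ± 0.28 (SD, n = 24) and 4.57 ± 0.23 (SD, n = 24) gave a log2 FC of -0.23 (standard error 0.075, limma P = 0.00382, P-BH = 0.141). The other MRPL14 probe did not show it, with a log2 FC of -0.042 (P = 0.479). Over the 48 pigs, the 2 probes of this gene had a Pearson r of -0.066, given as a description.

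MRPL52 had 3.81 ± 0.20 (SD, n = 24) with HF and 3.99 ± 0.23 (SD, n = 24) with LF on its brightest probe. The pigs fed HF ranged from 3.46 to 4.20 (median 3.79) and those fed LF from 3.39 to 4.38 (median 4.02), and 20 of 24 were below the median of the LF group. The log2 FC was -0.19 (standard error 0.063, limma P = 0.00463, P-BH = 0.151), and probe 2 gave -0.20 (P = 0.00251). Probes 3 and 4, which had differed by line, had diet effects of -0.11 (P = 0.0595) and -0.11 (P = 0.0753). All 4 probes were thus lower with HF and higher in the low RFI line, and which of the effects passed differed between the pairs.

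MRPL48, a mitochondria-specific protein of the large subunit with 1 probe, ranged from 1.73 to 2.57 (median 2.21) with HF and from 1.86 to 2.89 (median 2.35) with LF. Its log2 FC of -0.17 (standard error 0.063, limma P = 0.00872, P-BH = 0.189) was the weakest of the 3. It lost its call when any 1 of 27 of the 48 pigs was left out, with P up to 0.0165. On the first scan day alone the log2 FC of MRPL48 was -0.078 (limma P = 0.364), and on the second it was -0.27 (P = 0.0101). The effects by day were -0.23 and -0.23 for MRPL14 and -0.17 and -0.20 for MRPL52. None of the 3 genes met the cut-offs on either day. With the normexp correction in place of the background subtraction of the scanner, neither MRPL48 (P = 0.0367) nor MRPL52 (P = 0.016) passed.

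**Figure D4:**
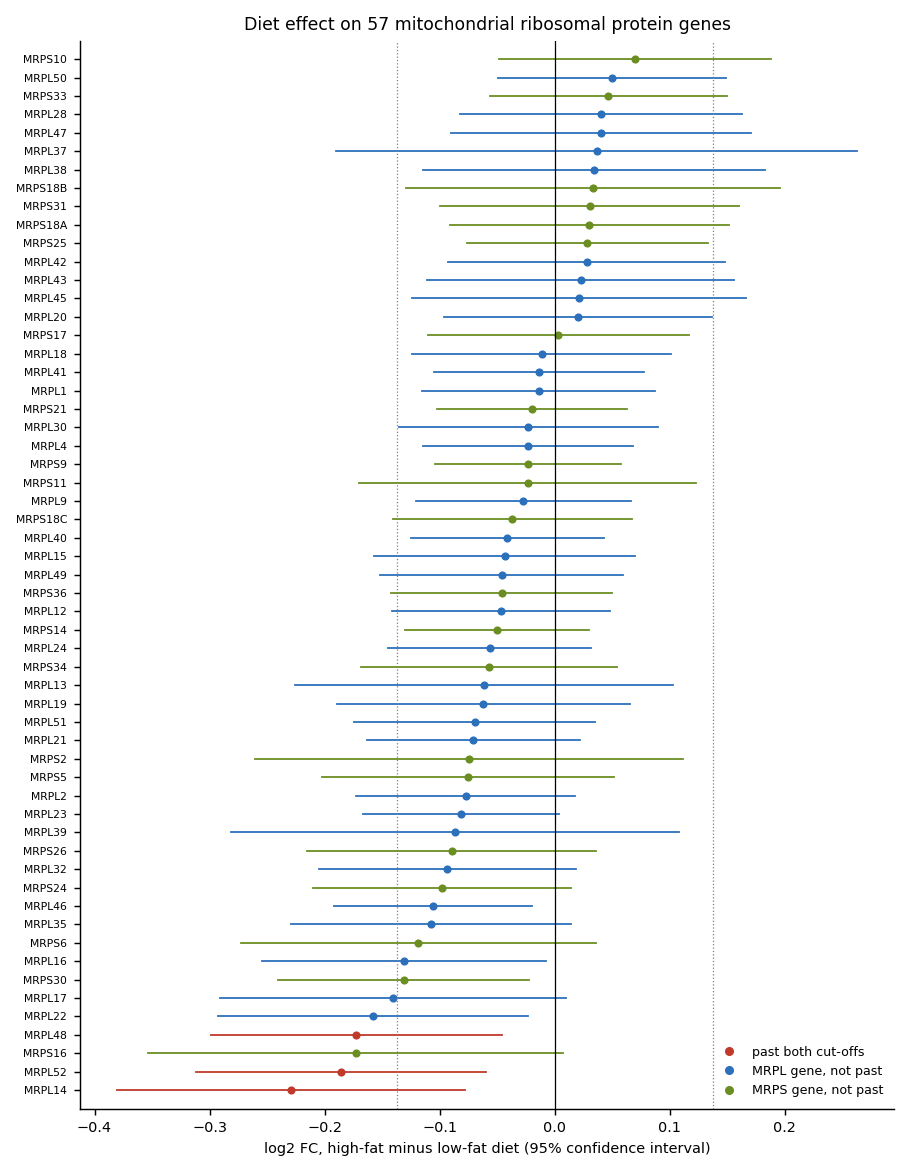
Log2 FC of the high-fat minus the low-fat diet (horizontal axis) with 95% confidence intervals for the 57 tested genes, ordered by effect, with genes past both cut-offs in red, other MRPL genes in blue, other MRPS genes in green and dotted lines at an FC of 1.1. MRPL14 (-0.23), MRPL52 (-0.19) and MRPL48 (-0.17) are past the cut-offs on the low side.

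Most diet effects were small and slightly negative. The median over the 57 genes was -0.046, with 16 higher and 41 lower, and over all tested probes it was -0.014, with 20286 of 45236 higher. By name, the 36 MRPL genes had a median of -0.047 and the 21 MRPS genes -0.037. For 49 of the 57 genes the 95% interval of the diet effect lay within an FC of 1.2. The shift was not seen on both days: 28 genes were higher with HF on the first scan day (median -0.0031) and 10 on the second (median -0.068). It also depended on the background correction, since with normexp the median of the 57 genes was -0.016, with 23 higher, against -0.030 over all probes. With the mean over the probes of a gene it was -0.029, with 18 higher.

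An interaction of line and diet was called for 0 of the 57 genes, with 0 at an unadjusted P under 0.05 and 0 by the ANOVA without moderated variances. Among all symbols 0.328% met the cut-offs for the interaction. The estimates ran from -0.32 (MRPS16) to 0.25 (MRPL13). Intervals were wider than for the main effects, and for 56 of 57 genes they lay within an FC of 1.5.

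As a summary of each pig, the 57 genes were centred on their own mean and averaged, which is a description without a test. The average was 0.012 ± 0.10 (SD, n = 24) for low RFI pigs and -0.012 ± 0.11 (SD, n = 24) for high RFI pigs. It was -0.023 ± 0.095 (SD, n = 24) with HF and 0.023 ± 0.11 (SD, n = 24) with LF, so that neither difference was as large as the spread between pigs. The pigs spread more on the second scan day, with an SD of 0.14 (n = 24) against 0.067 (n = 24) on the first. The lowest pig, at -0.25, and the highest, at 0.30, were both scanned on the second day.

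**Figure D5:**
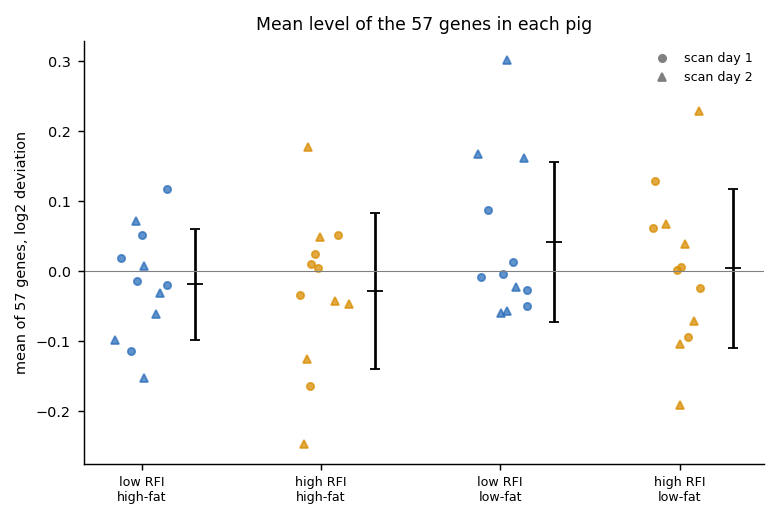
Mean log2 deviation of the 57 genes in each of 48 pigs (vertical axis) by line and diet group, with circles for the first and triangles for the second scan day and the mean and SD of each group beside the points. The 4 groups overlap, and triangles spread more widely than circles.

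The genes varied together from pig to pig after the group means were removed. A gene's Pearson r with the average of the other members had a median of 0.56 and ran from -0.47 (MRPL22) to 0.85 (MRPL18), and it was over 0.5 for 35 of the 57. The median r over the 1596 pairs of members was 0.28, against 0.0057 over pairs of the other 12440 tested symbols. These are descriptions over 48 pigs, in which the genes of a pig share its array, RNA extract and centring, and the members also lay at higher intensity (median 3.16) than the other symbols (1.203). MRPL18, MRPL20, MRPL51 and MRPL15, all of the large subunit, followed the average most closely, with r from 0.83 to 0.85. Of the called genes MRPL9 had an r of 0.46, MRPL52 of 0.48, MRPL48 of 0.54, MRPL24 of 0.27, MRPS16 of 0.16 and MRPL14 of -0.32. The within-group SD of a member was 0.19 in the median, from 0.12 (MRPS14) to 0.38 (MRPL37), and that of the other symbols was 0.25.

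Several probes of a gene could be compared for 16 genes, in 37 pairs. Their Pearson r over the pigs had a median of 0.82 and ran from -0.19 to 0.97, with 20 pairs over 0.8 and 5 below 0.2. The line effects of the 2 probes had the same sign in 28 of the 37 pairs. MRPL18, with the most probes, gave more of these pairs than any other gene, with r from 0.67 to 0.97. Most of its pairs were over 0.8, so that the pooled median leans on this gene and is not an average over the 16. A pair of MRPL18 probes with all 60 bases in common had an r of 0.97, as had such a pair of MRPS18C. The lowest values were those of probe 3 of MRPL24 with the brightest one (-0.19), of the MRPL14 pair and of the MRPL40 pair (-0.027).

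The other genes of mitochondrial translation were taken from lists. Over all 80 tested genes of these mitochondrial lists, 5 were called for line and 4 for diet, against 6.98% and 4.17% of all symbols, and 14 and 17 had an unadjusted P under 0.05, against 1877 and 1779 of 12497 symbols. Mitoribosomal proteins under other symbols, such as DAP3 and PTCD3, had 0 of 6 called for line and 0 for diet by limma, and 0 and 2 at an unadjusted P under 0.05. Among 13 translation factors, MTIF3, an initiation factor, was higher in the low RFI line (log2 FC of 0.24, limma P-BH = 0.0285) and no other was called for line or diet. A list of mitochondrial aminoacyl-tRNA synthetases, which charge tRNAs with amino acids, held 13 tested genes. Among them was QRSL1, which is a subunit of an amidotransferase and not a synthetase. In this list FARS2 was higher in the low RFI line (0.14, limma P = 0.00804, P-BH = 0.123). MARS2 was lower with HF (-0.36, limma P = 0.0026, P-BH = 0.125). The median over this list was 0.062 for line, with 12 of 13 higher, and -0.076 for diet, with 11 of 13 lower.

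Factors that build the ribosome or modify its RNA held the 2 largest line effects past the cut-offs among the mitochondrial lists, TFB1M and MTERFD1. Each is given by its brightest probe, of 3 tested probes for TFB1M and 4 for MTERFD1. Their other probes were not compared here. Of 18 tested genes, 13 had higher means in the low RFI line and 5 lower ones, with a median log2 FC of 0.038. MDN1, a factor of cytosolic ribosome assembly, was in this list and so among the 80 genes (line 0.11, limma P = 0.119). It was not called for line or diet. At the cut-offs 2 of the 18 were called higher and 1 lower, against 6.98% of all symbols in either direction. An unadjusted P under 0.05 was reached by 5 of the 18 with limma, against 1877 of 12497 symbols. TFB1M, which methylates the small ribosomal RNA, averaged 4.21 ± 0.19 (SD, n = 24) in low RFI pigs against 3.72 ± 0.35 (SD, n = 24) in high RFI pigs, with a log2 FC of 0.50 (limma P-BH = 3.8e-05). MTERFD1, now called MTERF3, a regulator of mitochondrial transcription and of ribosome assembly, had 2.22 ± 0.26 (SD, n = 24) and 2.58 ± 0.21 (SD, n = 24), a log2 FC of -0.37 (limma P-BH = 4.56e-04). RBFA, which matures the small subunit, was higher by 0.15 (limma P = 0.00774, P-BH = 0.121). With HF, 0 of the 18 were called by limma (3 at an unadjusted P under 0.05), although 16 had lower means.

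Of 8 genes of mitochondrial transcription and genome maintenance, 0 were called for line by limma (0 at an unadjusted P under 0.05). MTERF, a transcription termination factor, was higher with HF (0.23, limma P = 0.00523, P-BH = 0.156). Among 9 regulators, 0 were called for line (2 at an unadjusted P under 0.05). NFE2L2, a regulator of the oxidative stress response, was higher with HF (0.25, limma P = 6.77e-04, P-BH = 0.0766). In a list of 13 genes of mitochondrial content 0 were called for line at the cut-offs, with 7 higher, 6 lower and a median of 0.022. CS (citrate synthase) of this list was lower with HF (-0.21, limma P = 3.48e-04, P-BH = 0.0577), and 12 of its 13 genes had lower means with HF (median -0.040).

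Of 58 tested markers of liver cell types 3 were called for line, against 6.98% of all symbols, and 9 had an unadjusted P under 0.05, against 1877 of 12497. Of 10 Kupffer cell and macrophage markers 8 had lower means in the low RFI line and 0 were called (median -0.18), while 4 had an unadjusted P under 0.05 with limma, namely CSF1R (-0.24, P = 0.0102), AIF1 (-0.20, P = 0.0125), VSIG4 (-0.20, P = 0.014) and C1QA (-0.19, P = 0.0455), all lower. Within LF 6 of these 10 had an unadjusted P under 0.05 for line, against 1220 of 12497 symbols, and 2 were called lower, against 1.94% of all symbols. Within HF 0 of the 10 were called by limma and 0 had an unadjusted P under 0.05, against 1126 symbols, with 0 for the interaction. The average of that list over its genes, each centred on its mean, ran from -0.55 to 0.41 in the low RFI line and from -0.31 to 0.47 in the high RFI line. KRT7, of 6 cholangiocyte markers of which 4 had lower means, was under-expressed in the low RFI line (-0.35, limma P = 0.00646, P-BH = 0.108). RGS5 of 9 stellate cell and fibroblast markers was over-expressed in that line (0.87, limma P = 0.00131, P-BH = 0.0384). So was APOA1 of 7 hepatocyte markers (0.15, limma P = 0.00777, P-BH = 0.121). The average of the cholangiocyte list ran from -0.68 to 0.77 in low RFI pigs and from -0.90 to 0.75 in high RFI pigs, and that of the stellate cell and fibroblast list from -0.31 to 0.41 and from -0.45 to 0.47. Lists of 10 T and NK cell markers (6 lower), 4 B and plasma cell markers (3 lower), 8 endothelial markers (8 higher) and 4 red blood cell markers (3 higher) held 0 genes called for line. For diet, 0 genes of the cell type lists were called at the cut-offs, against 4.17% of all symbols, and 14 of the 58 had an unadjusted P under 0.05 with limma, against 1779 of 12497. These included 3 of 7 hepatocyte and 3 of 4 red blood cell markers. All 7 hepatocyte markers and all 4 red blood cell markers had lower means with HF (medians -0.092 and -0.35) and all 6 cholangiocyte markers higher ones (median 0.26). Their part in the results on MRPL9, MRPL24, MRPS16 and the genes lower with HF was not tested.

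Genes next to the 6 called ones along the chromosome were examined by a rule chosen after the values were seen, taking the nearest tested gene on each side in the order of the RefSeq table. Of these 12 neighbours 2 were called for line and 2 for diet, against 6.98% and 4.17% of all symbols. OAZ3 beside MRPL9 was under-expressed in the low RFI line (log2 FC of -1.65, limma P-BH = 4.03e-04), opposite in direction to MRPL9. MMP14, a matrix metalloproteinase beside MRPL52, was lower as well (-0.25, limma P = 0.00935, P-BH = 0.135). LOC100514530 beside MRPL48 was lower with HF (-0.23, limma P-BH = 0.0475), as MRPL48 was. So was FAM149B1 on one side of MRPS16 (-0.16, limma P = 8.95e-04, P-BH = 0.0841). The neighbours of MRPL24, HDGF (-0.040, P = 0.37) and RRNAD1 (-0.042, P = 0.724), did not pass for line, nor did those of MRPS16.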

How the data were processed

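The authors deposited scanner output for each of 48 arrays, with intensities not normalized between arrays, and a table of log2 values centred on the median of each array. The software R 2.10.0 is named in the submitters' processing notes. Background-subtracted intensities were used. A total of 483 spots marked as outliers were set to missing, spots of a probe were averaged, and each array was centred, on the log2 scale, at the median of the 45236 tested probes. A tested probe had to be well above background on 12 or more arrays. A linear model of line, diet and their interaction was fitted probe by probe (limma 3.58.1, R 4.3.3) with moderated variances, and P-BH was taken over all tested probes. The cut-offs for P and FC are those of the methods of the study. A gene stands for its brightest probe. Genes were named by a rule: those called for line, diet or interaction on any probe, the 3 of highest and the 3 of lowest intensity, those not tested, and the called genes of each list. The genes, the gene lists and the rule were chosen with earlier results of these data known. Of the 77 symbols of this pattern in the RefSeq table of the assembly Sscrofa11.1, 57 were among the 58 genes. Probe sequences are those of the scanner output. The table gave names and gene order only, and no genome was used. The fit was tested on simulated data. Alternatives were an ANOVA, other centring and background corrections, the deposited log2 values, other filters, slide and scan day, other probes per gene and leaving out each pig. The number of arrays limits the precision.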

Additional observations from a re-analysis of the deposited data

How the results depend on the processing

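The count of genes over-expressed in the low RFI line was 1 and became 2 with quantile normalization, with centring on the 75th percentile, with the normexp correction and with the deposited log2 values, in each case by MRPL17, and with the probe of smallest P, by MRPL52. The count of under-expressed genes was 2 and became 1 on the first scan day alone (MRPL24), 1 on the second (MRPS16) and 1 with the mean over the probes of a gene (MRPS16). The count of genes lower with HF was 3 and became 1 with the normexp correction (MRPL14), 2 with no filter on dim probes (MRPL14 and MRPL52), 2 with the mean over the probes of a gene (MRPL48 and MRPL52), 0 on either scan day alone and 0 at a P-BH of 5%. The counts of genes higher with HF and of interactions stayed at 0 in all of these settings. Leaving out each pig in turn, chosen after seeing the data, gave 1 to 2 genes over-expressed, 2 under-expressed, 0 higher with HF, 2 to 4 lower with HF and 0 interactions. The second over-expressed gene was MRPL17 in 9 of these 48 fits and MRPS31 in 3, after leaving out 2 pigs of the low RFI line with HF (numbers 3 and 10), 4 of the high RFI line with HF (5, 10, 11 and 12), 4 of the low RFI line with LF (1, 3, 4 and 6) or 2 of the high RFI line with LF (3 and 11), numbered in accession order. The log2 FC of MRPL9 stayed between 0.22 and 0.28 in the other settings and met the cut-offs in each. The direction of the effects of the 6 named genes was the same in every setting run. The cause of the changes was not tested, except that a scan day alone has fewer arrays. No paired analysis was possible because the labels give every sample the same replicate number and a further number that differs for every pig. With slide as a block, the called genes were the same for each of the 5 counts.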
